A study of Mus musculus with 11 samples.

Results

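The family of miR-148 and miR-152 in the mouse mammary gland was represented on the array by 3 members, mmu-miR-148a, mmu-miR-148b and mmu-miR-152, out of 334 mouse miRNAs. The members were taken by name from the annotation of the array, without use of any measured value, and they occupied 12 of the 1336 plus-strand mouse spots, 4 for each miRNA. Glands came from pregnant mice of 3 strains, FVB, Balb/C and FVB129B6, with 2, 3 and 3 arrays, respectively, and were taken late in pregnancy according to the methods of the study. The 3 C3(1)/Tag mammary tumors (C3TAg in the labels) were primary tumors of transgenic FVB mice, in which the C3(1) promoter drives the SV40 large T and small t antigens. The labels give neither the age of the mice nor a transgene in the glands. Pregnant glands hold a large share of epithelium, but both tissues were profiled whole, so fewer cells of a type and less of a miRNA per cell cannot be told apart.

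miRNAs pair with messenger RNAs mainly through their seed, bases 2 to 8, and miRNAs that share a seed are therefore grouped as a family. miR-148a is known as one of the most abundant miRNAs of milk and of lactating mammary epithelium. Members of this family are known to target the DNA methyltransferase Dnmt1, and loss of miR-148a or miR-152 has been described in several kinds of cancer.

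The mature sequences are shown because the 3 members share a seed and differ at few other bases, which is what the probes have to tell apart. They are RefSeq sequences, written 5′ to 3′ with the seed in capitals.
mmu-miR-148a: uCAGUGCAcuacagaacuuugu
mmu-miR-148b: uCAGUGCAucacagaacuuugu
mmu-miR-152: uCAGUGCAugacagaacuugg
Counted from 1 at the 5′ end, miR-148a and miR-148b differed by C9U and U10C and were identical at 20 of 22 positions. From miR-148a to miR-152 the substitutions were C9U, U10G and U20G over 21 positions, and miR-152 was 1 base shorter. From miR-148b to miR-152 they were C10G and U20G. Each 60-base probe held the full complement of its own mature sequence, over 22, 22 and 21 bases. How much a probe binds the other members was not tested, and with only 2 or 3 substitutions between members some shared binding cannot be told apart from each member's own signal.

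The 3 genes lie on different chromosomes of GRCm38.p6. Mir148a is on the minus strand at chr6:51269812-51269910, within the span of the predicted gene Gm38821. Mir148b is on the plus strand at chr15:103285125-103285221 and Mir152 on the plus strand at chr11:96850393-96850465. The annotation table places Mir148b inside Copz1 and Mir152 inside Copz2, on the strand of these genes, which encode zeta subunits of the COPI vesicle coat. The hairpins are shown with the measured 3′ arm in capitals.
Mir148a: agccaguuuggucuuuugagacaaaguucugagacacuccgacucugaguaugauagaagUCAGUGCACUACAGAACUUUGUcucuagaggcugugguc
Mir148b: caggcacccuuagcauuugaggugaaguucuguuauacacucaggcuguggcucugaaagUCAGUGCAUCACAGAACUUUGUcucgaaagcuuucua
Mir152: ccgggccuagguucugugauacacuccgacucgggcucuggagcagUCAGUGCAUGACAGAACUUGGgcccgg

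Of the 334 miRNAs, 267 matched a RefSeq mature sequence through their probe, and no other matched miRNA carried the family's seed. In 4 others, miR-130a, miR-130b, miR-301 and miR-721, the inner 6 bases of the seed stood 1 position nearer to the 5′ end. The sequence of miR-130a, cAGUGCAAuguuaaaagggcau, shows this shift. The nearest of the other matched sequences was 8 edits away from a member.

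Values are given as levels, the log2 green signal of a miRNA minus the median of its array, so that 0 is the median spot. Levels of different probes are not comparable, because probes differ in how strongly they bind. Before any comparison, 2 features of the arrays bear on all results. The FVB arrays were dim, with a median green intensity of 188.5 and 245.5, where the other gland arrays had 508 to 671.5. The tumor arrays lay on another slide and were read with another version of the extraction program, and only 15 to 64 of the 334 miRNAs were well above background on them, against 209 to 262 on the gland arrays. The replicates are numbered samples, but no label says that each came from its own mouse, and the titles of Balb/C replicates 2 and 3 could name the left and right gland of 1 mouse. They are counted as 2 samples here, with their mean as 1 sample in an alternative. P-values therefore measure the spread between samples, which may in part be technical.

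On the 8 gland arrays all 3 members were called well above background in 96 of 96 spots, and on the tumor arrays in 0 of 36 spots. No spot was saturated. Between the spots of a member on a gland array, with outlier spots left out, the SD was 0.01 to 0.18 on the log2 scale, with a median of 0.04. This was below the SD between the arrays of a strain, which was 0.12 to 0.33 for miR-148b, 0.16 to 0.62 for miR-148a and 0.09 to 0.17 for miR-152. Outlier spots apart, the number of arrays, not the spots, limits the precision.

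miR-148a, the milk miRNA of the family, had levels of 7.58 and 8.46 in the FVB glands. In the Balb/C glands they were 7.79, 6.90 and 8.01, and in the FVB129B6 glands 8.09, 7.91 and 8.23. The strains overlapped, and the lowest gland value was that of Balb/C replicate 2. The means were 8.02 ± 0.62 (SD, n = 2), 7.57 ± 0.59 (SD, n = 3) and 8.08 ± 0.16 (SD, n = 3). These intensities of 47075 to 161250 compare with negative control medians of 14.1 to 21.6 on the same arrays.

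miR-148b had levels of 2.36 and 2.82 in the FVB glands. They were 1.25, 1.47 and 1.46 in the Balb/C glands and 1.22, 1.34 and 1.60 in the FVB129B6 glands. Both FVB arrays were above all 6 others, and the Balb/C and FVB129B6 arrays overlapped. The means were 2.59 ± 0.33 (SD, n = 2), 1.39 ± 0.12 (SD, n = 3) and 1.39 ± 0.20 (SD, n = 3).

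miR-152 had levels of 4.90 and 5.03 in the FVB glands. They were 3.86, 3.69 and 4.02 in the Balb/C glands and 4.59, 4.36 and 4.69 in the FVB129B6 glands. On this scale no 2 strains overlapped, with FVB highest and Balb/C lowest, whereas without scaling the FVB mean was the lowest. The means were 4.97 ± 0.09 (SD, n = 2), 3.86 ± 0.16 (SD, n = 3) and 4.55 ± 0.17 (SD, n = 3).

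**Figure D1:**
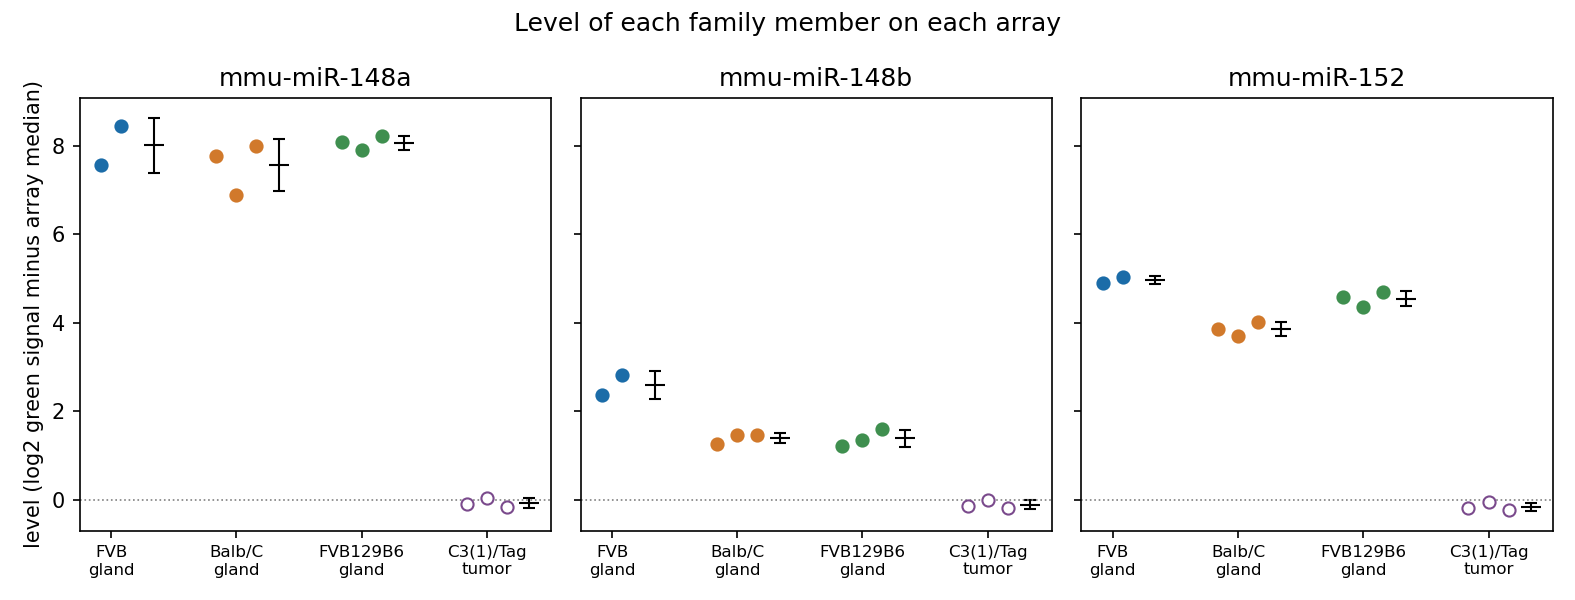
Level of each member (log2 green signal minus the median of the array) on the 11 arrays, 1 point per array, with the group mean and SD in black. Open points were not well above background. miR-148b lay between 2.36 and 2.82 on the FVB arrays and between 1.22 and 1.60 on the other gland arrays, and on the tumor arrays every member lay between -0.24 and 0.03.

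The comparison of strains asked whether the genetic background by itself shifts miRNAs in the pregnant gland. By limma's moderated F-test over the 3 strains, with Benjamini-Hochberg adjustment over 261 miRNAs, miR-148b (adjusted p = 0.00626) and miR-152 (adjusted p = 0.00626) differed between strains and miR-148a did not pass (adjusted p = 0.409). These 2 of 3 members stand beside 46.0% of all miRNAs tested. With Balb/C replicates 2 and 3 averaged, the limma adjusted p was 0.0103 for miR-148b, 0.0113 for miR-152 and 0.403 for miR-148a.

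In Balb/C against FVB glands, miR-148b was lower by 2.30-fold (log2 difference -1.20, SE 0.21, limma adjusted p = 0.00588) and miR-152 by 2.16-fold (-1.11, SE 0.18, limma adjusted p = 0.00543). Lower calls made up 32.2% of all miRNAs tested in this contrast. The median of all tested was itself -0.48, so beyond that shift miR-148b differed by -0.72 and miR-152 by -0.63. For miR-148a the difference was -0.46 with a 95% interval of -1.34 to 0.43 (limma adjusted p = 0.358), 0.02 above the median of all tested.

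In FVB129B6 against FVB glands, miR-148b was lower by 2.31-fold (log2 difference -1.21, SE 0.21, limma adjusted p = 0.00380). This was the 1 member among the 31.4% of miRNAs called lower. For miR-152 the difference was -0.42 with an interval of -0.84 to 0.00 (limma adjusted p = 0.0954), close to the median of all tested, -0.39. For miR-148a it was 0.05 with an interval of -0.83 to 0.94 (limma adjusted p = 0.923).

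Between FVB129B6 and Balb/C glands no member passed the test, beside 3.45% of all miRNAs tested. The difference for miR-152 was 0.69 with an unadjusted interval of 0.31 to 1.06 and no overlap between arrays. Its limma p was 0.00323 and its adjusted p was 0.0683. It passed when arrays were scaled on the miRNAs detected on all of them (limma adjusted p = 0.0286). It also passed when the tumor arrays were kept in the fit (limma adjusted p = 0.0458). There the difference stayed at 0.69. Since miR-152 was undetected in tumors, those arrays changed only the estimate of the spread and the adjustment. The differences were -0.01 for miR-148b, with an interval of -0.44 to 0.42, and 0.51 for miR-148a, with an interval of -0.28 to 1.30.

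The differences from FVB depended on the scaling of the arrays. The unscaled green intensity of miR-148b was 1265 and 1342 on the FVB arrays, for a mean of 1304 ± 54.8 (SD, n = 2). The mean was 1446 ± 84.1 (SD, n = 3) for Balb/C and 1514 ± 263 (SD, n = 3) for FVB129B6 glands, and the strains overlapped. Without scaling, the log2 difference of miR-148b from FVB turned to 0.15 in Balb/C and 0.20 in FVB129B6 glands, and neither passed limma's test, while the median of all tested rose to 0.87 and 1.02. Relative to the median of all tested, a scaling by 1 constant per array cancels, so 4 of the 7 scalings plotted give the same value. For miR-148b this was -0.72 in Balb/C and -0.82 in FVB129B6 glands. The 3 others gave -0.87 and -0.77 with quantile normalization, -0.28 and -0.31 with normexp, and -0.38 and -0.11 with the ratio of green to red. For miR-152 the value was -0.63 in Balb/C and -0.03 in FVB129B6 glands, with ranges over the 3 others of -0.73 to -0.14 and of -0.18 to 0.42. With the ratio of green to red, neither difference of miR-148b from FVB passed (-0.41 and -0.10, limma adjusted p = 0.103 and 0.692). The log2 red signal of miR-148b, centred on the red array median, was also highest in FVB. Its means were 0.81 in FVB, 0.53 in Balb/C and 0.05 in FVB129B6 glands. The ratio thus takes out red signal at the member's own spots and is not a scaling of the array alone. The part of the dimmer FVB arrays in these differences was not tested.

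**Figure D2:**
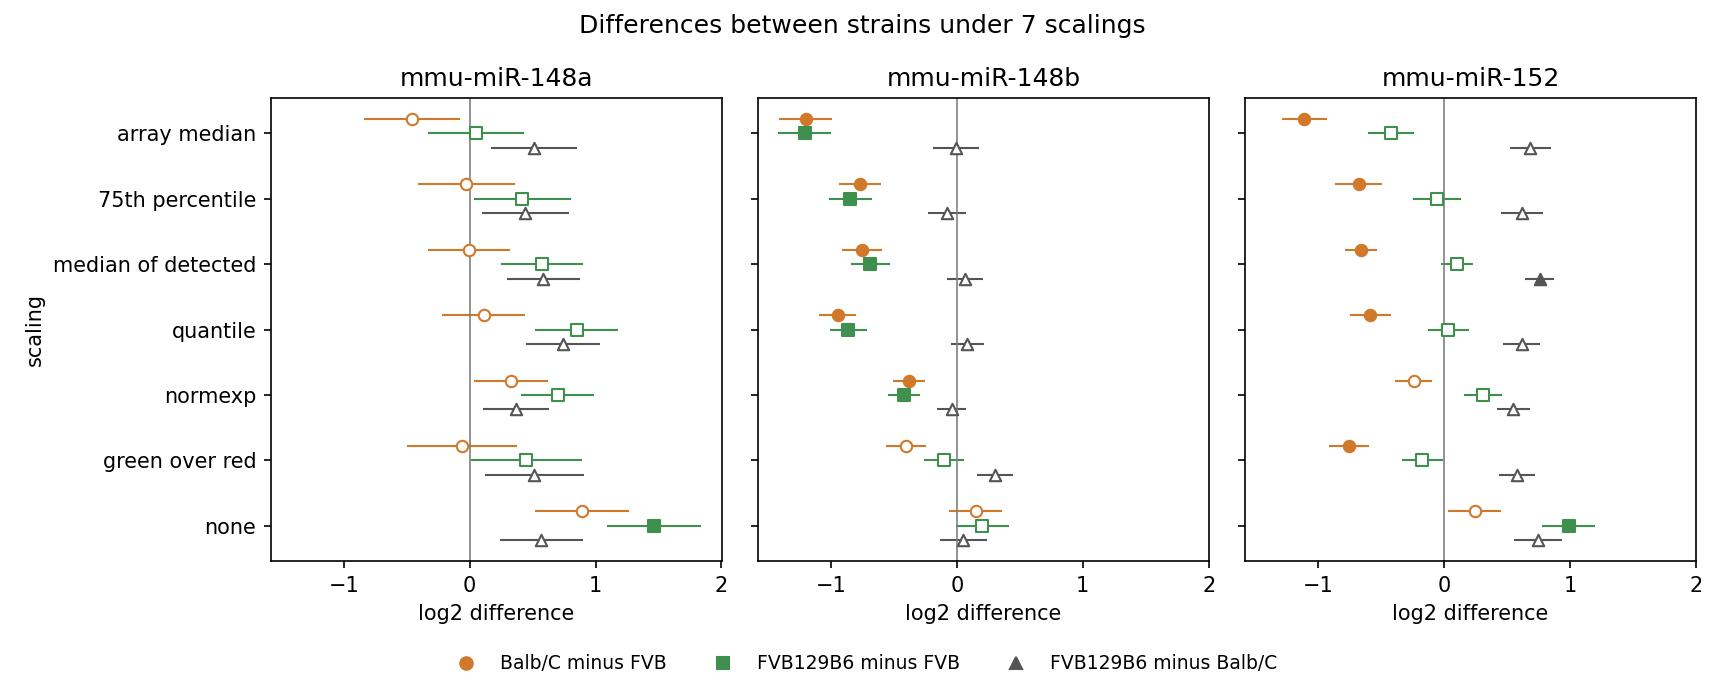
Differences between strains for each member (log2, with SE as lines) under 7 scalings of the arrays. Filled symbols have a limma adjusted p of at most 0.05 and open symbols do not, and without scaling the differences of miR-148b from FVB lie at 0.15 and 0.20.

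A single spot carried weight for miR-152. On the array of Balb/C replicate 2, the 4 spots read 6650, 6150, 6920 and 80700, and the extraction program marked the last as an outlier. This was the 1 outlier among the 96 member spots on gland arrays. With outlier spots kept, as in the deposited log2 table, miR-152 no longer passed the F-test (limma adjusted p = 0.0722).

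Differences between members within an array do not depend on a constant scaling of that array. miR-152 minus miR-148b was 2.54 and 2.21 on the FVB arrays, 2.61, 2.23 and 2.56 on the Balb/C arrays, and 3.37, 3.02 and 3.09 on the FVB129B6 arrays. All 3 values of FVB129B6 glands were above those of the other strains, and FVB and Balb/C overlapped. An exact permutation test of the strain labels gave p = 0.0179, or 0.0536 after Benjamini-Hochberg adjustment over the 3 pairs of members, which did not pass. The smallest p these 560 relabelings allow is 0.00357.

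miR-148a minus miR-148b was 5.22 and 5.64 on the FVB arrays, 6.54, 5.43 and 6.55 on the Balb/C arrays, and 6.88, 6.57 and 6.63 on the FVB129B6 arrays. FVB and Balb/C overlapped only through Balb/C replicate 2 (exact permutation p = 0.0750, adjusted 0.113). miR-148a minus miR-152 lay between 2.68 and 3.43 for FVB, 3.21 and 3.99 for Balb/C and 3.50 and 3.55 for FVB129B6 glands (exact permutation p = 0.275, adjusted 0.275). These calls depended on which arrays were used, Balb/C replicate 2 among them. With replicates 2 and 3 averaged, chosen after the data were seen, the adjusted exact p was 0.0143 for miR-148a minus miR-148b, 0.0190 for miR-152 minus miR-148b and 0.0143 for miR-148a minus miR-152. Without replicate 2 it was 0.0286 for miR-148a minus miR-148b, 0.0143 for miR-152 minus miR-148b and 0.0143 for miR-148a minus miR-152. Without FVB replicate 2, which leaves 1 FVB array, it was 0.0429 for miR-148a minus miR-148b.

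**Figure D3:**
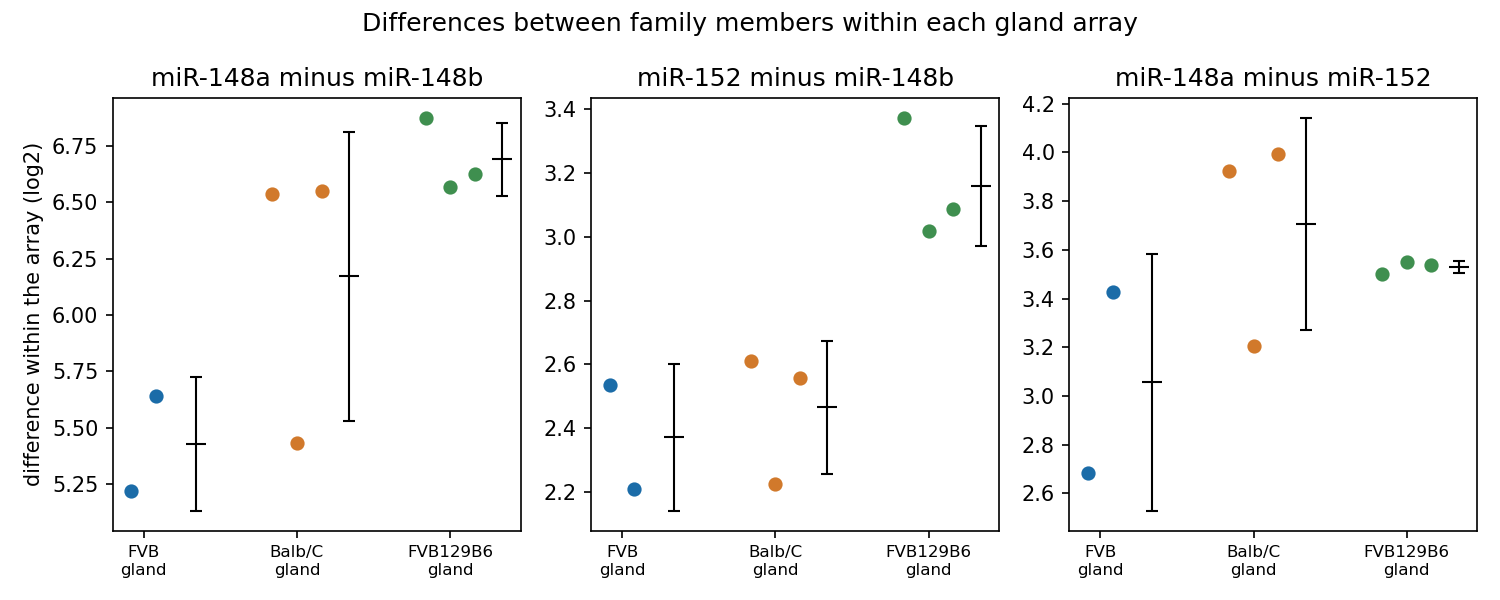
Differences between pairs of members within each gland array (log2), 1 point per array, with the strain mean and SD in black. For miR-152 minus miR-148b the 3 arrays of FVB129B6 glands lie at 3.02 to 3.37, above the 5 other arrays at 2.21 to 2.61.

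The miRNAs most like each member over the 8 gland arrays were found among the 258 other miRNAs tested, by Pearson's r of their levels. All points share the array medians and the grouping into strains, so r is a description. Nearest to miR-148a were miR-200a (r = 0.955), miR-429 (r = 0.938), miR-200b (r = 0.916) and miR-141 (r = 0.913), all members of the miR-200 family that marks epithelial cells, and then miR-682 (r = 0.894). Nearest to miR-148b were miR-484 (r = 0.993), let-7a (r = 0.992), let-7c (r = 0.981), miR-674 (r = 0.980) and let-7d (r = 0.976), of which the let-7 miRNAs are known to rise as cells differentiate. Nearest to miR-152 were miR-10b (r = 0.971), miR-187 (r = 0.953), the hypoxia-responsive miR-210 (r = 0.944), miR-181b (r = 0.926) and miR-96 (r = 0.925). Between the members r was 0.283 for miR-148a and miR-148b, 0.642 for miR-148a and miR-152, and 0.711 for miR-148b and miR-152.

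Other miRNAs related to gestation were followed as a list of 8, miR-141, miR-200a, miR-146b, miR-193, miR-30b, miR-30c, miR-26a and miR-26b, taken from the discussion of the study. All 8 were well above background in every gland. In Balb/C against FVB glands 5 of the 8 were lower, beside 32.2% of all miRNAs tested, and none higher by limma's test, with a median of -0.78 beside -0.48 for all tested. The largest were miR-146b (-1.62, SE 0.44, limma adjusted p = 0.0229) and miR-193 (-1.43, SE 0.31, limma adjusted p = 0.0111). In FVB129B6 against FVB glands 3 of the 8 were lower, beside 31.4% of all tested, miR-193 (-1.33), miR-30c (-1.04) and miR-26a (-0.97), and the list's median was -0.63 beside -0.39. Between FVB129B6 and Balb/C glands none passed, with a median of 0.16 beside -0.03.

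Among the cell type lists, only skeletal muscle in both strains, and red blood cells in FVB129B6 glands, had all their miRNAs called against FVB. Skeletal muscle miRNAs, miR-1, miR-206 and miR-133b of a list of 4, had a mean level of 1.12 to 3.23 in FVB, 6.73 to 7.61 in Balb/C and 6.21 to 6.44 in FVB129B6 glands, and all 3 were higher in both strains than in FVB. Higher calls made up 5.75% of all miRNAs tested in Balb/C and 8.05% in FVB129B6 against FVB glands. Red blood cell miRNAs, miR-451, miR-144 and miR-486, had a mean level of 4.99 to 5.11 in FVB, 3.66 to 4.62 in Balb/C and 2.75 to 3.43 in FVB129B6 glands. Against FVB, 1 of the 3 was lower in Balb/C glands, beside 32.2% of all tested, and all 3 in FVB129B6 glands, beside 31.4%. The 5 luminal epithelial miRNAs, miR-141, miR-200a, miR-200b, miR-200c and miR-429, had a mean level of 6.09 to 7.13 in FVB, 5.23 to 6.15 in Balb/C and 6.20 to 6.59 in FVB129B6 glands. Of them only miR-200c was called, with less in Balb/C glands than in FVB (-1.29, SE 0.41, limma adjusted p = 0.0429). The 4 myoepithelial and stromal miRNAs on the array, of a list of 5, ranged from 5.88 to 6.74 over all glands. The 4 white blood cell miRNAs, also of 5, had a mean level of 3.05 to 3.63 in FVB and 2.62 to 2.94 in FVB129B6 glands. In Balb/C glands it spread more widely, from 2.76 to 5.38. None of either list was called between strains. The 1 endothelial miRNA on the array, of 2, miR-126-5p, lay at -4.13 to -1.76, and it was not called between strains. In the glands each list's miRNAs were well above background on every array, apart from miR-126-5p. The part of these cell types in the levels of the members was not tested.

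The miRNAs with the shifted seed served as relatives of the family. By limma's F-test none of miR-130a (adjusted p = 0.318), miR-130b (adjusted p = 0.265) and miR-301 (adjusted p = 0.612) passed between strains. For miR-130a the mean levels were 5.54 in FVB, 5.49 in Balb/C and 5.18 in FVB129B6 glands. miR-721 did not enter the test, since it was too rarely above background.

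In the C3(1)/Tag tumors no member was detected. miR-148a had levels of -0.09, 0.03 and -0.17, miR-148b of -0.15, -0.01 and -0.18, and miR-152 of -0.20, -0.06 and -0.24, all close to the median spot. Their intensities were 106.2 to 160, where the negative control spots of the same arrays had medians of 117 to 163. For 33 of the 36 member spots the program had put a surrogate in place of the signal, as it does for spots it cannot tell from background. Surrogates filled 54.2% to 70.8% of all mouse spots on these arrays.

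By limma, with adjustment over 261 miRNAs, all 3 members were called lower in tumors, against the mean of the strains and against FVB glands alone, with adjusted p-values of at most 7.20e-07 on the measured values. Lower calls made up 52.5% of all miRNAs tested in the first contrast and 52.5% in the second. The members passed the filter of this fit through the gland arrays alone. Their low calls therefore add no test beyond their lack of detection on the tumor arrays. The measured means were -0.08 in tumors and 7.89 over the strains for miR-148a, -0.11 and 1.79 for miR-148b, and -0.17 and 4.46 for miR-152. Since no tumor value was above background, folds are lower bounds, in which each tumor array took the level of its faintest miRNA that was well above background.

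P-values beside the bounds are from limma's fit with this floor. In it every tumor value of a member is the floor of its array. These p-values therefore compare the glands with that floor and not with a measured tumor level. miR-148a was at least 68.3-fold lower in tumors than in the glands (limma adjusted p = 4.26e-11) and at least 74.9-fold lower than in FVB glands (limma adjusted p = 2.31e-09), the strain of the tumors. miR-152 was at least 6.33-fold lower than in the glands (limma adjusted p = 2.73e-08) and at least 9.01-fold lower than in FVB glands (limma adjusted p = 1.64e-07). miR-148b was at least 1.74-fold lower than in FVB glands (limma adjusted p = 0.0310). Against the mean of the strains it has no bound (limma adjusted p = 0.985), since its gland mean was no higher than the faintest detected miRNAs of the tumor arrays. The bounds depended on the scaling. Against the mean of the strains, the bound for miR-148a was 8.68-fold with the 75th percentile, 7.72-fold with quantile normalization and 193-fold with no scaling. Against FVB glands it was 7.93-fold, 5.81-fold and 112-fold. With the 75th percentile or quantile normalization miR-152 had no bound in either contrast. Scaled on the detected miRNAs, the bounds against the mean of the strains were 11.8-fold for miR-148a and 1.09-fold for miR-152. With any of these scalings except no scaling, miR-148b had no bound against FVB glands. Its measured difference from the mean of the strains turned to 1.07 with the 75th percentile (limma adjusted p = 0.000845).

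The low values of the family in tumors stood among others. All 8 gestation miRNAs were called lower in tumors than in the glands, beside 52.5% of all tested, with a median of -6.54 beside -0.83 for all tested, and 7 of the 8 were well above background on no tumor array. The exception, miR-200a, was at 2.69 in tumors. The other 7 passed the filter through the gland arrays alone, and the 52.5% also covers miRNAs faint in the glands. The comparison with all tested is therefore no test of a shared fall. Of the luminal list, 2 of 5 were well above background on no tumor array, miR-141 among them at -0.18, and the list's mean was 0.83 to 1.54. The 3 red blood cell miRNAs were not detected on any tumor array (0.14 to 0.53), nor was 1 of the 3 muscle miRNAs, of which the mean was 0.11 to 2.03. The stromal list was at 1.00 to 1.57, with 1 of 4 well above background on every tumor array and 2 of 4 on none. The white blood cell list was at 0.37 to 1.23, with 2 of 4 well above background on no tumor array. miR-126-5p was undetected on the 3 tumor arrays, with a mean level of 0.07. It was still called higher there than in the glands (3.28, limma adjusted p = 2.45e-06). Background lay near level 0 on the tumor arrays and far below it on the gland arrays. The rarely detected miR-721 had means of -0.12 in tumors and -4.93 to -3.87 in the glands. Level differences of miRNAs undetected in tumors are thus not measured changes. For the shifted seed, miR-130a was at 0.23, miR-301 at 0.08 and miR-130b at -0.04 in tumors, all near the background of those arrays. Against the mean of the strains miR-130a and miR-301 were called lower (limma adjusted p = 4.70e-10 and 5.47e-09). The difference of miR-130b, -0.14, did not pass (limma adjusted p = 0.584). With tumor values this near background, the low calls set gland signal against background and are no test of a fall. Tumor state, slide and program version coincide in these arrays and cannot be told apart.

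**Figure D4:**
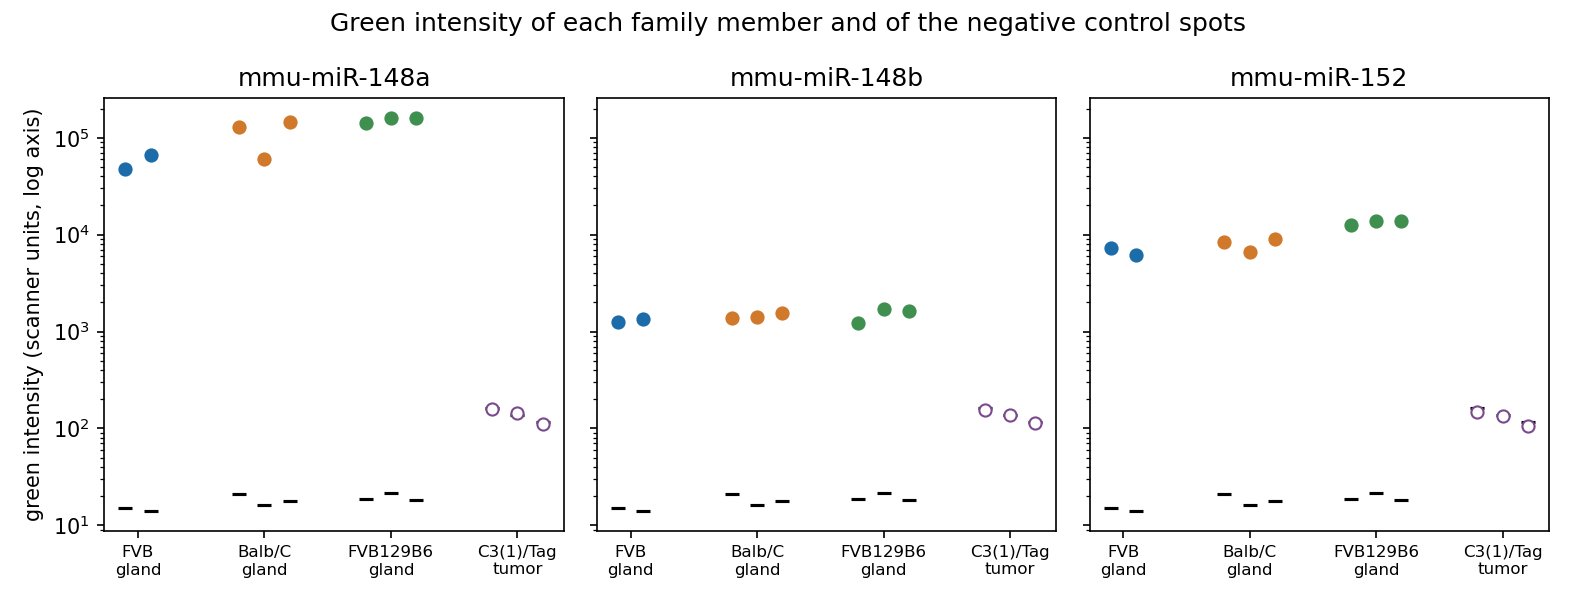
Green intensity of each member on each array (scanner units on a log axis, mean of the spots without outliers), with the median of the negative control spots of that array as a black bar. On the tumor arrays the members (open points, 106.2 to 160) lie on the negative controls (117 to 163), and the controls of the gland arrays lie at 14.1 to 21.6.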

How the data were processed

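The authors deposited, for 11 scans of a custom 2-color miRNA array, the green and red intensities of each spot from the Feature Extraction program (version 10.5.1.1 for glands, 9.5.1.1 for tumors), which had subtracted the background and normalized the dyes. They also deposited a table of log2 values, which equals the log2 green intensity after 1 constant per array. Outlier spots were removed, the log2 green intensities were centred on the array median over 1336 spots, and averaged over the spots of a miRNA. A miRNA was well above background on an array with at least 50% of its spots called so, and it was tested if this held on at least 3 arrays (261 miRNAs in each fit). The filter stands in for the detection calls of the methods, which name no test between strains. Strains were compared by limma's moderated F-test and contrasts over the 8 gland arrays. Tumors were compared in a fit of all 11 arrays. P-values were Benjamini-Hochberg adjusted with a threshold of 0.05. Differences between members were tested by exact permutation of the strain labels, with the F ratio as statistic. The members, the lists and the tests were chosen with earlier results of these data known. Named are the members, miRNAs sharing their seed, the 5 miRNAs most like each, a gestation list and cell type markers. On top of these, the miRNAs with a shifted seed were chosen after the sequences were seen. Not on the array under the names listed were miR-199a*, miR-133a, miR-142-3p and miR-126-3p. Alternatives were other scalings, background corrections, filters, spots, channels and sets of arrays. The fits were tested on simulated data. Sequences are from RefSeq (GRCm38.p6). R 4.3.3, limma 3.58.1, Python 3.11.15, numpy 2.4.6, pandas 2.3.3, scipy 1.17.1 and matplotlib 3.10.9 were used.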

Additional observations from a re-analysis of the deposited data

Results flagged for a closer look

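The red channel entered the comparisons only as the ratio of green to red, and all 3 members gave signal in it on the gland arrays, above the negative control spots. The lowest array mean was 4712 for miR-148a, 937 for miR-148b and 2492 for miR-152, where the highest 95th percentile of the red negative controls on a gland array was 30.6. What was labeled for the red channel is not given in the sources used here.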

How the results depend on the processing

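Of 450 recomputed values, 402 kept their call at an adjusted p of 0.05 and, where the value is a difference, its sign. In some of these the difference could not move, as when the array left out belonged to neither group compared. F-tests and exact tests have no sign, so only their call was compared. The F-test of miR-152 kept its call without scaling (limma adjusted p = 0.00714), although its differences from FVB changed sign. The share therefore overstates how stable the results are. Without scaling, the F-test gave an adjusted p of 0.0239 for miR-148a and 0.666 for miR-148b. The log2 differences from FVB became 0.90 in Balb/C and 1.47 in FVB129B6 glands for miR-148a, 0.15 and 0.20 for miR-148b, and 0.24 and 0.99 for miR-152. Of these, miR-148a and miR-152 in FVB129B6 glands passed as higher (limma adjusted p = 0.00918 and 0.00405). With normexp the F-test of miR-148b gave 0.0515, and the differences from FVB were 0.33 for miR-148a in Balb/C glands and, for miR-152, -0.24 in Balb/C and 0.31 in FVB129B6 glands. With quantile normalization miR-148a stood at 0.11 in Balb/C against FVB glands and miR-152 at 0.034 in FVB129B6 against FVB glands, and the exact test of miR-152 minus miR-148b passed (0.0214). With the median of detected miRNAs, miR-152 stood at 0.10 in FVB129B6 against FVB and at 0.76 against Balb/C glands, which passed. It also passed there with all 11 arrays, at an unchanged difference of 0.69. With green over red the F-test of miR-148b gave 0.152, with differences from FVB of -0.41 and -0.10. With outlier spots kept and in the deposited table, which share values, the F-test of miR-152 gave 0.0722 and 0.0722. The difference of miR-148b between FVB129B6 and Balb/C glands, -0.01, changed sign with the median of detected miRNAs (0.066), quantile normalization (0.084), no scaling (0.053), green over red (0.30), Balb/C replicates 2 and 3 averaged (0.028) and the slide row as a block (0.012).

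In tumors, miR-148b turned to 1.07 against the strains (adjusted p = 0.000845) and 0.53 against FVB with the 75th percentile, to 0.63 and 0.25 with the median of detected miRNAs, and to 0.00447 against the strains with a floor. The cause of these changes was not tested. No member could be tested in tumors when only miRNAs detected on every array were kept.

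Leaving out 1 array at a time, the difference of miR-148a between FVB129B6 and FVB glands ranged from -0.39 to 0.49, and that of miR-148b between FVB129B6 and Balb/C glands from -0.12 to 0.076. The adjusted exact p ranged from 0.0286 to 0.514 for miR-148a minus miR-148b, 0.0143 to 0.171 for miR-152 minus miR-148b and 0.0143 to 0.614 for miR-148a minus miR-152. With Balb/C replicates 2 and 3 averaged it was 0.0143, 0.0190 and 0.0143. A lone FVB array was assumed to vary like the other groups.

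Arrays with the same replicate number did not deviate together (mean r = 0.0440 in 15 pairs, and -0.0221 in 30 pairs of unlike numbers). With the replicate block, miR-148a stood at -0.10 in FVB129B6 against FVB glands, and no call of a member changed. With 2 or 3 arrays a strain, differences well under the intervals given cannot be resolved, and faint tumor signals are limited by the background of those arrays.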
